A study of Homo sapiens with 6 samples.

Results

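The 10 genes described here make serine, asparagine and folate-bound one-carbon units: PHGDH, PSAT1, PSPH, SHMT1, SHMT2, MTHFD1, MTHFD1L, MTHFD2, ALDH1L2 and ASNS. They were chosen by name as enzymes of these routes, with earlier results of these data known. Counts of members set beside shares of all genes are therefore descriptions and not tests of the set. They are 10 of the 19775 genes that had a probe set of their own on the array. Their annotation covers 27 probe sets, of which 22 name the member alone and 5 name other genes as well. Expression was measured on Affymetrix arrays of 54675 probe sets in the human colon adenocarcinoma line HT-29, of which 3 variants were used. BR100 and BR200 are the bortezomib-resistant variants, and the variant they are set against is labelled wild type. Bortezomib is a drug that blocks the proteasome, the complex that degrades most ubiquitin-tagged proteins. Per the labels, the drug was raised stepwise between 20 and 300 nM during 7 months, after which clones were picked by limiting dilution in 100 or 300 nM during 4 more months. That wording is repeated for every sample, wild type included, and it gives neither the dose at which BR200 was cloned nor whether drug was present at harvest. The isolates are described as clonal, so the traits of a clone and those of resistance cannot be told apart.

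Each variant had 2 arrays. One was labelled with the 3' IVT Express kit from 100 ng of total RNA and the other with the One-Cycle kit from 3 ug, so array values below are given in that order, Express before One-Cycle. Whether these were separate cultures is not stated, and p-values therefore measure only the spread between arrays, which may be technical. All values are log2 expression as deposited, and log2 4 was reached by 10063 to 10193 genes per array. Of 11 colon epithelial markers 8 passed the filter on low values, with EPCAM, CDH1 and KRT18 among them, while CDX1, CDX2 and CDH17 stayed near the lowest value. Of those 8, 4 were called lower in either resistant variant and none higher. LGALS4 was furthest apart (-5.99 in BR100 and -5.56 in BR200 on the log2 scale), and VIL1 changed by -1.85 and -1.75. The summed level of the markers was 17.00 to 17.01 in BR100, 17.07 in BR200 and 17.31 to 17.35 in wild type on the log2 scale. Of the fibroblast markers 3 of 8 passed the filter, of the blood cell markers 2 of the 5 on the array and of the endothelial markers 1 of 4. COL3A1, LUM, PDGFRB, PTPRC, CD3E and CDH5 lay at or near the lowest value of 2.23. COL1A1 read 5.36 to 5.81, ACTA2 3.82 to 5.94 and CD14 5.33 to 6.76, and LYZ stood at 14.34 to 14.84. ACTA2 was called higher in both resistant variants (1.02 and 1.13). The other fibroblast markers tested, TAGLN (-1.10) and COL1A1 (-0.33), were called lower in BR100. In BR200 TAGLN (0.22) and COL1A1 (-0.20) were not called. CD14 was called higher in BR200 (1.05) and not in BR100 (0.26). The gap between the 3' and 5' probe sets of ACTB, which reflects RNA integrity and labelling, was 2.44 in BR100, 2.50 in BR200 and 3.61 in wild type (means of 2 arrays). The gap also depended on the kit. With Express it was 3.03 in BR100, 3.24 in BR200 and 4.22 in wild type, and with One-Cycle 1.86, 1.76 and 2.99. Within each kit that gap moves with the same groups as the members, as do some of these markers, and their part in the results was not tested. Fewer cells of a kind and less RNA per cell cannot be told apart in such bulk samples.

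Serine is made from the glycolytic intermediate 3-phosphoglycerate by PHGDH, PSAT1 and PSPH acting in turn. SHMT2 in mitochondria and SHMT1 in the cytosol then split it into glycine and a one-carbon unit carried by folate. In mitochondria MTHFD2 oxidises the loaded folate and MTHFD1L releases formate, which MTHFD1 reattaches to folate in the cytosol for purine, thymidylate and methionine synthesis. ASNS makes asparagine from aspartate and glutamine. In many mammalian cells the transcription factor ATF4 raises ASNS, PHGDH, PSAT1, SHMT2 and MTHFD2 when amino acids are short or unfolded protein accumulates.

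The stretches upstream of 5 members are printed. ASNS and MTHFD2 stand for the falls below, PSAT1 for the fall within serine synthesis and MTHFD1 for the rise. MTHFD1L is a further mitochondrial member, which was not tested as a gene. Each stretch is the 250 bases before the annotated start in RefSeq (GRCh38.p14), read 5' to 3' along the gene. The promoter table held 11 windows for 7 of the 10 members; ALDH1L2, PSPH and SHMT2 were not among them. Capitals mark matches to 3 motifs searched on both strands.
ASNS (chr7:97872409-97872658, minus strand): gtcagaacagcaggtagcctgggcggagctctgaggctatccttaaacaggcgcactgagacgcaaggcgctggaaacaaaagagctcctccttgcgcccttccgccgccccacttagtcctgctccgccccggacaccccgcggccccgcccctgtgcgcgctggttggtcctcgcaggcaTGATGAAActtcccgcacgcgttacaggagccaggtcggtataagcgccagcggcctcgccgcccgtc
MTHFD1L (chr6:150866236-150866485, plus strand): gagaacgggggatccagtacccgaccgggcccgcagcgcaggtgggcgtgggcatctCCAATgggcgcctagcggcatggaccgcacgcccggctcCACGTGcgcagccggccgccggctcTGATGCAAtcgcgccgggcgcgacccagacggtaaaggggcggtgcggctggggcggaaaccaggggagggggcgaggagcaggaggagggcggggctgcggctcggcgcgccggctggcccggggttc
PSAT1 (chr9:78296875-78297124, plus strand): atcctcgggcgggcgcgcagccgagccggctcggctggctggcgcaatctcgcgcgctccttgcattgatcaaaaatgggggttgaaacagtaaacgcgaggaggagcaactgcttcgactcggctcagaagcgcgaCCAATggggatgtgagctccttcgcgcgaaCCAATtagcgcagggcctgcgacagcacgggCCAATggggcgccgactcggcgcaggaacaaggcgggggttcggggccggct
MTHFD2 (chr2:74198365-74198614, plus strand): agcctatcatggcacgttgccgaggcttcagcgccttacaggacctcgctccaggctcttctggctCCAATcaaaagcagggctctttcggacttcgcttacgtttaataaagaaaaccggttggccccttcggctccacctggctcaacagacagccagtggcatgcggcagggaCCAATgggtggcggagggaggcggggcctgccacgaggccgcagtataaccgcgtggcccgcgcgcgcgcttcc
MTHFD1 (chr14:64388103-64388352, plus strand): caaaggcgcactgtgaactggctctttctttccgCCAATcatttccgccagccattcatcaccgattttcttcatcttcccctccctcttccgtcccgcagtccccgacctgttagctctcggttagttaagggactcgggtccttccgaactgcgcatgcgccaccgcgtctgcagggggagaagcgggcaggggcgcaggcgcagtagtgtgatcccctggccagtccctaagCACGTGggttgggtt
The motifs were TGATGNAA, the core of the C/EBP-ATF response element to which ATF4 and its partners bind in genes of the amino acid response, CCAAT, the CCAAT box, and CACGTG, an E-box. No matches overlapped one another. In the windows printed, ASNS held TGATGAAA at -68 to -61 from its start, and MTHFD1L held TGATGCAA at -129 to -122. Of the windows not printed, window 3 of MTHFD1L held TGATGCAA at -90 to -83. Windows 2 and 4 of MTHFD1L and window 2 of ASNS held no TGATGNAA. TGATGNAA stood in windows of 2 of the 7 members, against 3.89% of the 27305 genes in the table. CCAAT stood in 6 of the 7 members, all but ASNS, against 37.0% of genes, and PSAT1 had 3 copies. CACGTG stood in MTHFD1L and MTHFD1, 2 of the 7 members, against 7.73% of genes. Among the 8620 genes of the table that were tested on the array, the shares were 2.34% for TGATGNAA, 42.2% for CCAAT and 11.6% for CACGTG. A gene with several windows, such as MTHFD1L, has more room for a match. A match describes these letters only.

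The question asked of the arrays was how the variants differ in gene expression. Among the members, 6 genes were lower in both resistant variants than in wild type (ASNS, PSAT1, MTHFD2, SHMT2, PSPH and PHGDH) and 1 was higher (MTHFD1). These 7 were the members whose own probe sets passed the filter, and all 7 reached log2 4 on all 6 arrays. The other members, SHMT1, MTHFD1L and ALDH1L2, had own probe sets below it and were not tested as genes. A gene was called where limma's two-sided p, adjusted over 10370 genes by Benjamini-Hochberg, was under 0.05. In BR100 against wild type 68.5% of all genes were called, 31.8% lower and 36.7% higher. In BR200 against wild type 66.5% were called, 31.2% lower and 35.4% higher. A call is therefore common in these data. All 7 members changed at least 2-fold, as did 12.0% of genes downward and 13.7% upward in BR100, and 10.7% downward and 13.0% upward in BR200. The median log2 change was -1.87 over the tested members in BR100 and -2.09 in BR200, beside 0.04 over all genes in either comparison. The 2 arrays of each resistant variant all lay below both wild type arrays for the 6 genes and above them for MTHFD1. Such separation was seen downward in 33.8% of genes and upward in 38.3% in BR100, and in 32.8% and 36.7% in BR200. Both comparisons use the same wild type arrays and are not independent of each other. All 7 calls and directions stayed the same when the kit term was left out of the model, although the count over all genes then dropped to 4387 for BR100 and 4100 for BR200, against 7102 and 6901 with it.

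**Figure D1:**
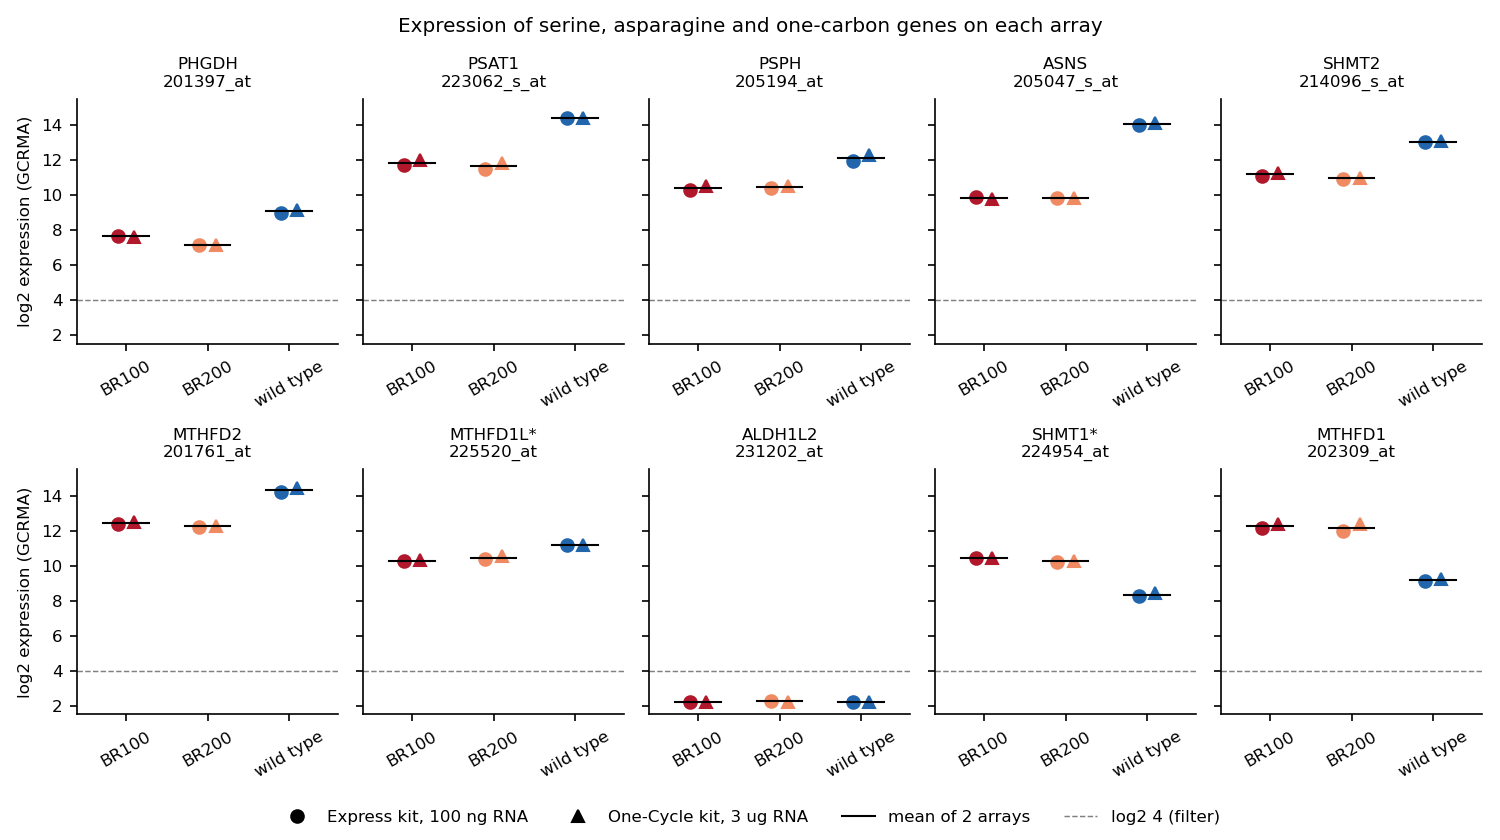
Log2 expression of the member genes on each array (y axis) by variant (x axis, BR100, BR200, wild type), with a point per array and kit and a bar at the mean of 2 arrays. Names with an asterisk are probe sets whose annotation also names other genes. ASNS sits at 9.78 to 9.88 on the 4 resistant arrays and at 13.99 and 14.13 in wild type, while MTHFD1 runs the other way.

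Transcripts of all 3 serine synthesis enzymes were lower in the resistant variants. PHGDH, which oxidises 3-phosphoglycerate, had log2 levels of 7.69 and 7.59 in BR100 and 7.15 and 7.15 in BR200, against 9.00 and 9.17 in wild type. The resistant arrays all lay below both wild type arrays, and BR200 lay below BR100. The log2 change was -1.45 in BR100 (SE 0.0918, adjusted p = 0.00042, limma), which is 2.73-fold lower, and -1.94 in BR200 (SE 0.0918, adjusted p = 0.000257), 3.83-fold lower. A further probe set, 212995_x_at, names PHGDH together with MZT2A and MZT2B. It read 11.47 and 11.21 in BR100 and 11.53 and 11.20 in BR200, against 10.90 and 10.49 in wild type, and was called higher in the fit over probe sets (0.65 and 0.67 on the log2 scale), a call that was lost without the kit term (adjusted p = 0.0919 in both). Which of the 3 named genes it reports was not tested.

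PSAT1, the aminotransferase of the second step, had the largest change of the 3. Its brightest probe set read 11.70 and 11.99 in BR100 and 11.49 and 11.82 in BR200, against 14.38 and 14.44 in wild type. BR100 and BR200 overlapped each other, and neither overlapped wild type. The change was -2.57 in BR100 (SE 0.0965, adjusted p = 0.000159, 5.93-fold lower) and -2.75 in BR200 (adjusted p = 0.000166, 6.74-fold lower). The other PSAT1 probe set, 220892_s_at, read 8.26 and 10.47 in BR100 and 7.94 and 10.27 in BR200, against 11.41 and 13.24 in wild type. Its levels depended on the kit, with Express 2.12 below One-Cycle on the log2 scale (adjusted p = 0.00336; 15.6% of probe sets were called lower with Express). Within a kit it still differed by -3.46 to -2.78 between a resistant variant and wild type.

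PSPH, the phosphatase that releases serine, read 10.30 and 10.50 in BR100 and 10.38 and 10.55 in BR200, against 11.97 and 12.28 in wild type. The resistant variants overlapped each other and neither overlapped wild type. The change was -1.73 in BR100 (SE 0.0736, adjusted p = 0.000191, 3.32-fold lower) and -1.66 in BR200 (adjusted p = 0.000228, 3.17-fold lower). A dimmer PSPH probe set, 205048_s_at, changed by -2.18 and -1.75. Another, 244819_x_at, ran against them at levels near the filter, which it did not pass. It read 4.16 and 3.82 in BR100 and 3.80 and 3.49 in BR200, against 3.16 and 2.73 in wild type, and was not tested.

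ASNS, the only member of asparagine synthesis, changed most of all members. It read 9.88 and 9.78 in BR100 and 9.86 and 9.84 in BR200, against 13.99 and 14.13 in wild type. The 4 resistant arrays spanned 0.10 log2 units and lay more than 4 units below wild type. The log2 change was -4.23 in BR100 (SE 0.0859, adjusted p = 6.99e-05, 18.8-fold lower) and -4.21 in BR200 (adjusted p = 8.06e-05, 18.6-fold lower). Ordered by log2 change from the lowest, ASNS was at rank 79 of 10370 genes in BR100 and rank 62 in BR200. A second ASNS probe set, 241082_at, was near the lowest value on every array and gave no fold.

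SHMT2 and MTHFD2, which act one after the other in the mitochondrial folate route, were both lower in the resistant variants. SHMT2 read 11.08 and 11.29 in BR100 and 10.94 and 11.00 in BR200, against 13.02 and 13.10 in wild type. Both resistant variants lay below wild type on every array. The change was -1.87 in BR100 (SE 0.0755, adjusted p = 0.000172, 3.67-fold lower) and -2.09 in BR200 (adjusted p = 0.000173, 4.26-fold lower). The other SHMT2 probe sets changed by -1.99 and -2.21 in BR100 and by -2.13 and -2.69 in BR200.

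MTHFD2, a dehydrogenase and cyclohydrolase that is low in most adult tissues and high in proliferating cells, read 12.40 and 12.49 in BR100 and 12.23 and 12.29 in BR200, against 14.23 and 14.45 in wild type. The groups did not overlap. The change was -1.90 in BR100 (SE 0.0763, adjusted p = 0.000172, 3.73-fold lower) and -2.09 in BR200 (adjusted p = 0.000178, 4.24-fold lower). Its dim probe set, 234976_x_at, read 4.27 and 4.56 in BR100 and 3.80 and 4.56 in BR200, against 6.39 and 7.27 in wild type, and changed by -2.41 and -2.64.

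MTHFD1L, the mitochondrial formate producer, could be read only through probe sets that also name LOC101928195 and LOC100996643. One, 225520_at, read 10.26 and 10.32 in BR100 and 10.40 and 10.52 in BR200, against 11.16 and 11.18 in wild type, a change of -0.88 (adjusted p = 0.00174 over 22317 probe sets) and -0.71 (adjusted p = 0.0033). The other, 231094_s_at, ran the opposite way, with every resistant array above wild type, and was not called (0.24 in BR100, adjusted p = 0.152; 0.37 in BR200, adjusted p = 0.0596). In BR200 it was called higher with median centring, quantile scaling or an intensity trend (adjusted p = 0.0438 to 0.0478). The probe sets naming MTHFD1L alone lay near the lowest value. ALDH1L2, the mitochondrial enzyme that oxidises formyl-folate, had 3 probe sets, and all read 2.23 to 2.28 on every array, so no change can be given.

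MTHFD1, the cytosolic enzyme with 3 activities that loads formate onto folate, read 12.17 and 12.40 in BR100 and 11.97 and 12.36 in BR200, against 9.12 and 9.26 in wild type. Every resistant array lay well above wild type. The change was 3.09 in BR100 (SE 0.0887, adjusted p = 0.0001, 8.51-fold higher) and 2.97 in BR200 (adjusted p = 0.000138, 7.83-fold higher). A second MTHFD1 probe set, 239846_at, did not pass the filter: it read 2.25 on all 4 resistant arrays, against 3.68 and 2.62 in wild type, and so ran against the bright one at levels near the lowest value.

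SHMT1, the cytosolic hydroxymethyltransferase, was also read only by probe sets with a second name, the microRNA gene MIR6778. Probe set 224954_at read 10.46 and 10.41 in BR100 and 10.22 and 10.29 in BR200, against 8.28 and 8.42 in wild type. It was higher by 2.08 in BR100 (SE 0.0858, adjusted p = 0.000503 over all probe sets) and 1.91 in BR200 (adjusted p = 0.000683). Probe set 209980_s_at was higher by 2.72 (adjusted p = 0.000482) and 2.58 (adjusted p = 0.000619). The probe sets naming SHMT1 alone read 2.23 to 2.55.

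Over the 12 own probe sets of members that passed the filter, 11 were called lower and 1 higher in both comparisons, all at least 2-fold, against 31.3% of probe sets called lower and 30.3% higher in BR100 and 29.2% and 28.4% in BR200. Of the 5 with shared annotation, 1 was lower, 3 were higher and 1 was not called in both.

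**Figure D2:**
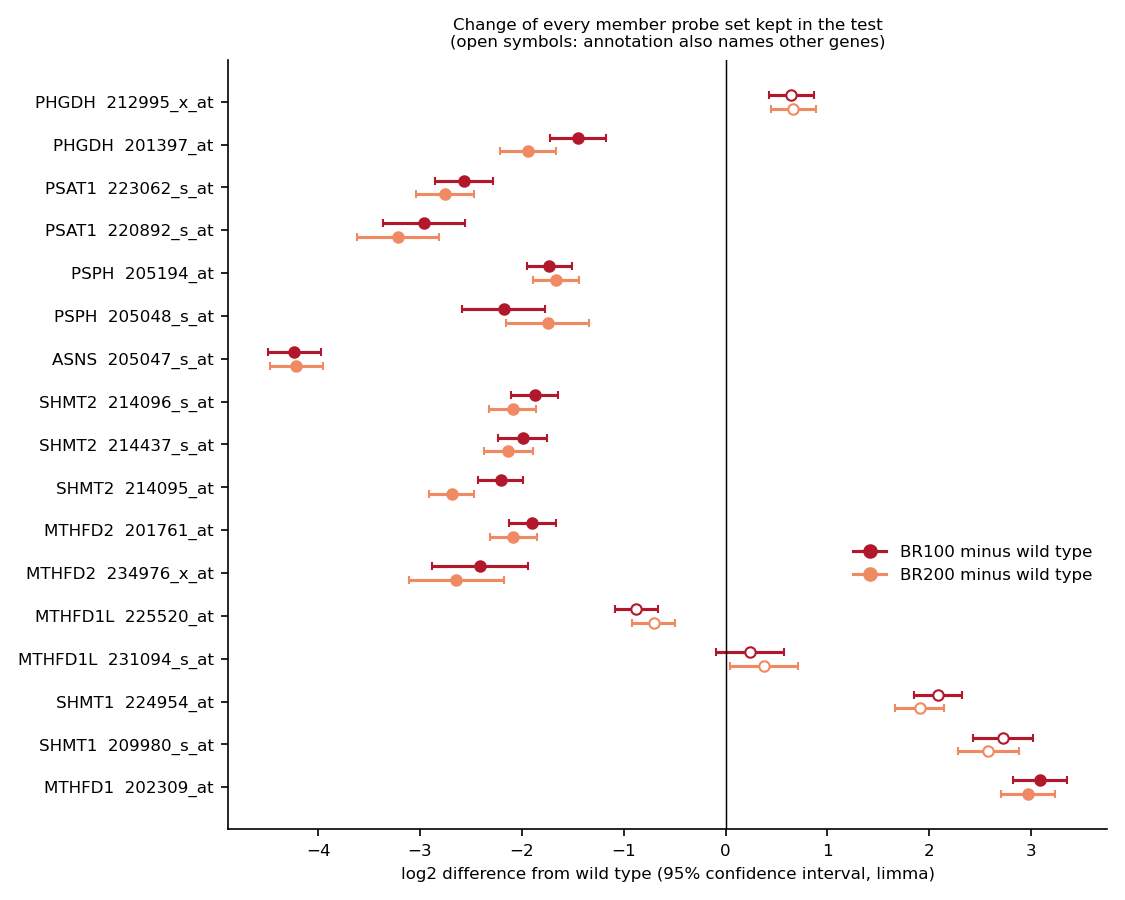
Log2 change of each member's probe sets against wild type (x axis) for BR100 and BR200, with 95% confidence intervals from limma's fit over probe sets. Filled points name the member alone and open points also name other genes. ASNS lies at -4.23 and -4.21, and MTHFD1 at 3.09 and 2.97.

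BR200 and BR100 lay closer to each other in these genes than either did to wild type. Of the 7 tested members 1 was called lower in BR200 and none higher, against 10.6% of all genes called, 4.23% lower and 6.39% higher. That gene was PHGDH, with a change of -0.49 in BR200 against BR100 (95% interval -0.74 to -0.24, adjusted p = 0.048, 1.40-fold lower). Its call was lost whenever 1 array of any variant was left out (-0.58 to -0.39), without the kit term (adjusted p = 0.177) and in the fit over probe sets (adjusted p = 0.0744). It was also lost with no filter (adjusted p = 0.23) and without probe sets ending in _x_at, _s_at or _a_at (0.0527). Within a kit the difference was -0.54 with Express and -0.43 with One-Cycle. ASNS differed by 0.02 (-0.21 to 0.25), PSPH by 0.07 (-0.13 to 0.27) and MTHFD1 by -0.12 (-0.36 to 0.12). PSAT1 differed by -0.19 (-0.45 to 0.07), MTHFD2 by -0.19 (-0.39 to 0.02) and SHMT2 by -0.21 (-0.42 to -0.01, adjusted p = 0.146). A p that misses the threshold does not show that the variants are alike, and the intervals cover the spread between arrays of 1 probe set a gene. Other probe sets gave values outside them. The SHMT2 probe set 214095_at differed by -0.48 (adjusted p = 0.0548 over probe sets), and SHMT2 was called lower in BR200 (adjusted p = 0.0373) when that probe set stood for the gene, with those ending in _x_at, _s_at or _a_at left out. The PSPH probe set 205048_s_at differed by 0.43 (adjusted p = 0.167).

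**Figure D3:**
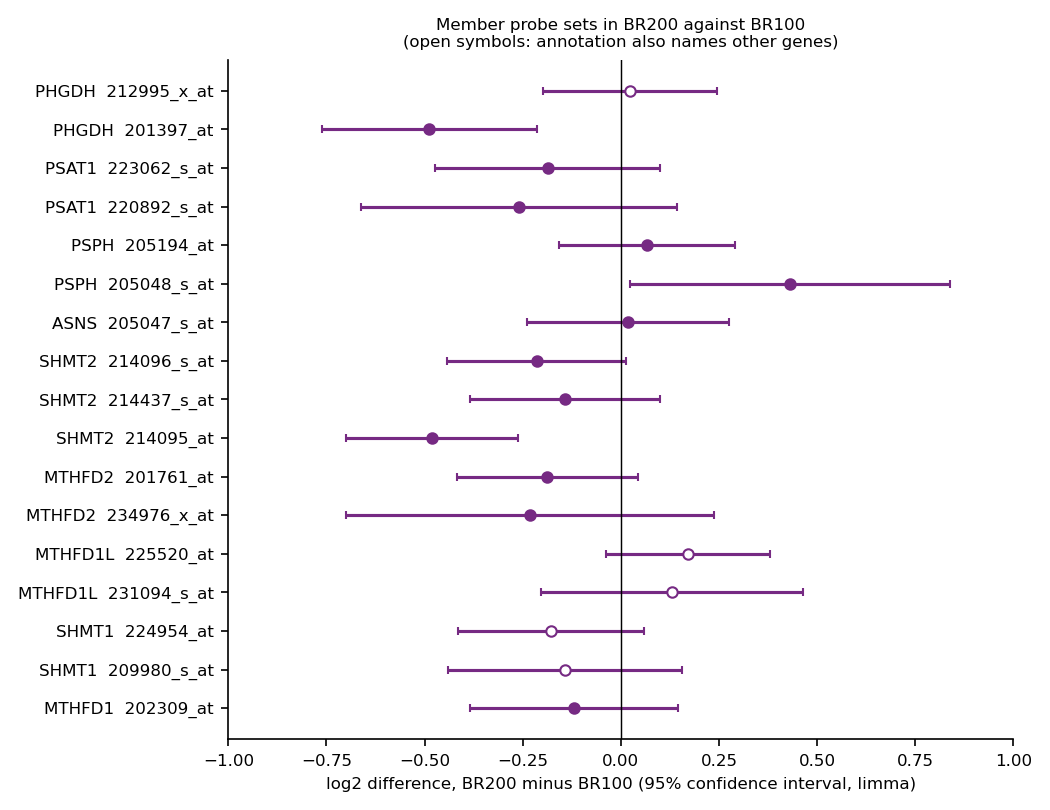
Log2 difference of BR200 minus BR100 (x axis) for the 17 member probe sets that passed the filter (rows), with 95% confidence intervals from limma's fit over probe sets. Open points also name other genes. PHGDH lies at -0.49 and ASNS at 0.02, and no probe set was called.

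Kit differences of the members were smaller than their changes against wild type. For MTHFD1, PSPH and PSAT1 they were larger than the difference between BR200 and BR100. Express minus One-Cycle differences ran between -0.25 (MTHFD1) and -0.01 (ASNS). None of the 7 was called, against 34.0% of genes called, 11.7% lower and 22.4% higher, although 3 had an unadjusted p under 0.05 (limma), all lower with Express. Between 2 and 4 members were called lower with averaged probe sets, all 6 arrays at log2 4, median centring, quantile scaling or an intensity trend.

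Related pathways were read through lists of named enzymes, also chosen with earlier results of these data known, so their counts are descriptions. Genes that use one-carbon units in nucleotide synthesis were all higher: 3 of 3 were called in both comparisons, beside 36.7% of all genes called higher in BR100 and 35.4% in BR200, a share that also bears on the lists that follow. TYMS, which makes thymidylate from a folate one-carbon unit, changed by 4.42 in BR100 (SE 0.0855, 21.4-fold higher) and 4.34 in BR200. ATIC and GART of purine synthesis changed by 0.96 and 0.94 in BR100 and by 0.82 and 0.61 in BR200. With probe sets averaged GART changed by 0.03 in BR100 and by -0.09 in BR200, and without the kit term its BR200 call was lost (adjusted p = 0.135). Of the genes listed under folate uptake and retention 3 of 5 were called higher in BR100 and 4 of 5 in BR200, and none lower. That list names a topic, and GGH and FPGS in it act against each other in retention. Its counts therefore do not show whether retention rose or fell. GGH (1.50 and 1.76), FPGS (1.10 and 1.01) and the carrier SLC19A1 (0.80 and 0.81) were called in both. With probe sets averaged the changes of SLC19A1 were 0.29 and 0.26, and both calls held. FOLR1 changed by 0.06 in BR100 and by 0.29 in BR200, where alone it was called, and SLC46A1 (0.10 and 0.07) was not called.

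Mitochondrial handling was mixed. The carriers SFXN2 (1.47 and 1.13), SFXN1 (1.01 and 0.94) and SFXN3 (0.49 and 1.10), of which SFXN1 moves serine into mitochondria, were called higher, but SFXN3 turned to -1.56 and -0.94, and SFXN1 to 0.04 and -0.30, when probe sets ending in _x_at, _s_at or _a_at were left out. SFXN1 was also not called without the kit term (adjusted p = 0.0568 and 0.0726), nor SFXN3 in BR100 without the BR100 Express array (0.38 on the log2 scale). The folate carrier SLC25A32 was not called (0.12 and -0.20). Both tested genes of the glycine cleavage system were higher, GCSH (1.41 and 1.33) and DLD (1.05 and 0.89), though DLD lost its BR200 call without the kit term (adjusted p = 0.0594). ALDH1L1, the cytosolic counterpart of ALDH1L2, was lower (-0.78 and -1.13), while MTHFSD (0.81 and 0.50) and MTFMT (0.65 and 0.81) were higher. Without the kit term calls were lost for MTHFSD (adjusted p = 0.0721 in BR100 and 0.214 in BR200), MTFMT (0.136 and 0.0865) and, in BR100, ALDH1L1 (0.0704). MTHFSD in BR200 was also not called when either BR200 array was left out (adjusted p = 0.0563 and 0.118). Of the 2 tested genes of serine and glycine breakdown, 2 were called higher in BR100 and 1 in BR200. GCAT was called in both (0.58 and 0.42), but not without the kit term (adjusted p = 0.061 and 0.138). Its BR200 call was also lost with the BR200 Express array left out (0.40). SRR, which makes D-serine, changed by 1.23 in BR100 and by 0.52 in BR200, where it was not called (adjusted p = 0.0514). It was called there under 3 other settings (adjusted p = 0.0449 to 0.0479) and with the BR200 Express array left out (0.80, adjusted p = 0.0137). Without those probe sets it changed by -0.41 in BR100 and -0.35 in BR200.

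In the methionine cycle 5 of 8 genes were higher and 3 lower in BR100, and 4 higher and 3 lower in BR200, beside 36.7% of all genes higher and 31.8% lower in BR100 and 35.4% and 31.2% in BR200. MAT2B (0.98 and 1.17) and MTR, the methionine synthase (0.88 and 0.89), were higher. With probe sets averaged they changed less, MAT2B by 0.49 and 0.58 and MTR by 0.44 and 0.33, and without the kit term MTR was not called (adjusted p = 0.26 and 0.264). MTRR, which restores its cofactor, was lower (-0.98 and -1.06), as was AHCYL2 (-0.58 and -0.98). AHCYL2 was not called in BR100 with probe sets averaged (-0.09) or with either BR100 array left out (adjusted p = 0.056 and 0.113). CTH, the enzyme that ends transsulfuration, was the tested gene of that list and changed by -3.65 and -3.56. Of the genes around aspartate, asparagine and glutamine 4 of 6 were higher and 2 lower in both. ASRGL1, an asparaginase, was higher (2.44 and 2.39), as was GOT2 (1.30 and 1.15), and GOT1 was lower (-1.05 and -1.23). ASS1, which joins citrulline and aspartate, read 4.49 and 4.15 in BR100 and 7.08 and 5.86 in BR200, against 12.53 and 12.33 in wild type.

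Serine use in lipids and proline synthesis moved by smaller amounts. PTDSS1, a phosphatidylserine synthase, was higher (0.70 and 0.27), and SPTLC2 was lower (-0.25 and -0.24), though it turned to 0.11 and 0.10 with probe sets averaged. The BR200 call of PTDSS1 was lost with 5 of the 6 arrays left out in turn (adjusted p up to 0.159) and without the kit term (0.0944). SPTLC2 lost its calls whichever array was left out (adjusted p = 0.0591 to 0.215). PTDSS2 was called in BR200 alone (-0.34, against -0.07 in BR100), and its difference between these variants was not called (adjusted p = 0.0843). Without the kit term PTDSS2 was not called in BR200 (adjusted p = 0.206). Of the proline genes PYCR1 was lower in both (-0.55 and -0.65), and ALDH18A1 changed by -0.45 in BR200 and by -0.17 in BR100, where it was not called. Without the kit term neither was called (PYCR1 adjusted p = 0.285 and 0.224, ALDH18A1 in BR200 0.158). PYCR1 was also lost with BR100 One-Cycle left out in BR100 (adjusted p = 0.0665) and with BR200 One-Cycle left out in BR200 (0.0518).

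Genes of amino acid stress signalling, the pathway in which the eIF2 alpha kinases raise ATF4, were mostly lower. In BR100 12 of 14 were lower and 2 higher, and in BR200 12 were lower and 1 higher. Of all genes 31.8% were called lower and 36.7% higher in BR100, and 31.2% and 35.4% in BR200. The list medians were -1.38 and -1.48 on the log2 scale, beside 0.04 over all genes. SESN2, a stress-induced inhibitor of mTORC1, changed by -4.62 and -5.21, TRIB3 by -3.76 and -3.83, DDIT3 by -3.65 and -3.63, and PPP1R15A by -3.76 and -2.28. PPP1R15A also differed by -1.48 between the kits (adjusted p = 0.00952), and without the kit term its BR200 call was lost (adjusted p = 0.0981). ATF4 itself read 12.57 and 12.56 in BR100 and 12.95 and 12.88 in BR200, against 13.80 and 13.84 in wild type, a change of -1.26 and -0.91. These are transcript levels, and ATF4 is regulated largely in translation. EIF2S1 was higher (1.17 and 0.88).

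**Figure D4:**
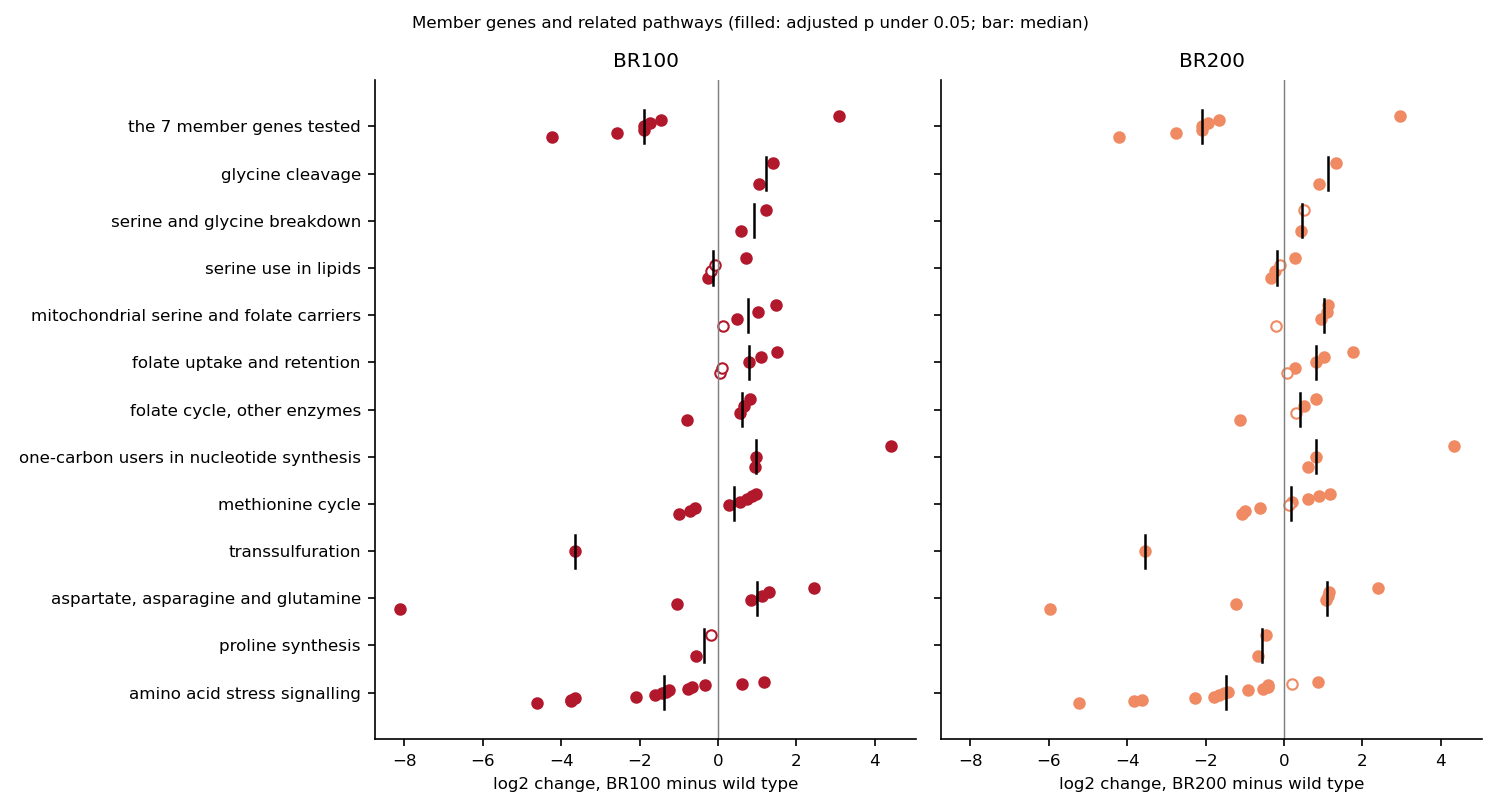
Log2 change against wild type (x axis) of each tested gene in the member list and in the lists of related pathways (rows), for BR100 and BR200, with filled points called by limma and a bar at the list median. The stress signalling list has medians of -1.38 and -1.48, and the member list -1.87 and -2.09.

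Members were also set beside their neighbours on the chromosome, 10 tested genes on either side by RefSeq order. The neighbours of MTHFD1 on chromosome 14 had a median change of 0.52 in BR100 and 0.66 in BR200. The chromosome as a whole stood higher, with medians of 0.63 and 0.66 over 348 genes. Over all genes the medians were 0.0401 and 0.038, and on the other members' chromosomes they ran between 0.0017 and 0.1425. Why chromosome 14 differed was not tested. MTHFD1 itself lay at 3.09 and 2.97. Its neighbours ranged between -0.50 and 2.78 in BR100 and between -0.29 and 3.39 in BR200. The neighbours of ASNS had medians of -0.24 and -0.17 and those of PSPH 0.58 and 0.56, both on chromosome 7. Those of SHMT2 ranged between -6.89 and 3.84 in BR100 and included INHBE (-6.89) and DDIT3 (-3.65).

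**Figure D5:**
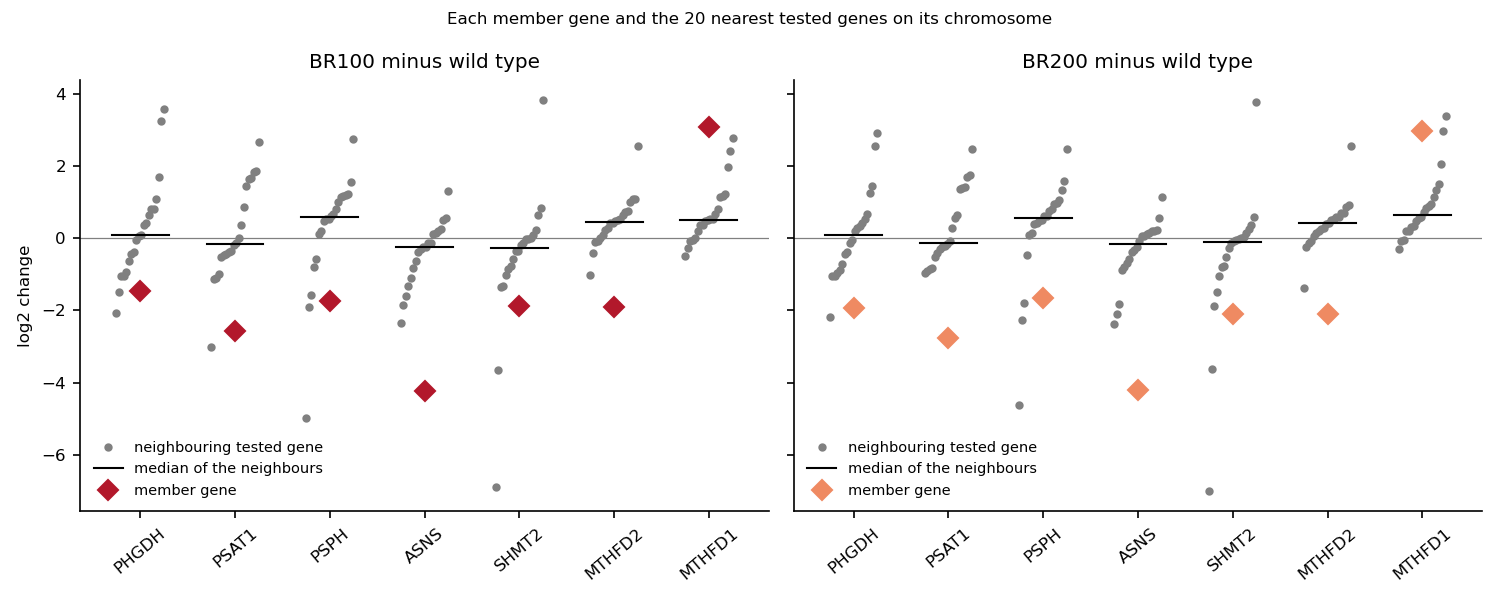
Log2 change against wild type (y axis) of each tested member and of its 20 nearest tested genes on the chromosome, for BR100 and BR200. ASNS at -4.23 in BR100 lies below its neighbours, whose median is -0.24.

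Likeness to other genes was measured as the Euclidean distance over the 6 arrays after centring within each kit. SHMT2 was the nearest of all tested genes to MTHFD2, at 0.137 log2 units, and MTHFD2 the next nearest to SHMT2 after PTPRH. No other member had a fellow member so near. The nearest fellow ranked 77 for PHGDH (MTHFD2), 134 for PSAT1 (SHMT2), 149 for ASNS (PSAT1) and 192 for PSPH (MTHFD2). For MTHFD1, which ran the other way, it ranked 9829 (PSPH). Outside the members, MTHFD2 was nearest to PTPRH (0.139), IGF2BP2 (0.156) and SLC31A1 (0.156). PHGDH was nearest to GRTP1 (0.0519), ZNF805 (0.130) and KLF12 (0.181), and ASNS to LAT2 (0.166), KDM7A (0.203) and ABCG1 (0.276). The distances are descriptions of 6 arrays.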

How the data were processed

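The authors deposited log2 values for each probe set and array, made with GCRMA per the submitters' processing notes, with no version given. GCRMA corrects background, normalizes and summarizes probes, and 34.8% to 35.3% of probe sets of an array stood at the lowest value, so changes of dim genes depend on the background estimate. Of the probe sets 41097 had 1 gene in the annotation, 1801 had several and 11777 had none. A gene was represented by its brightest own probe set, kept where at least 2 arrays reached log2 4, which left 10370 genes. A single model with variant and labelling kit was fitted to all 6 arrays with limma 3.58.1 in R 4.3.3 (2 residual degrees of freedom plus 2.33 from other genes). It was also run on simulated data with independent noise, no kit effect and a small share of genes changed in BR100. Those settings differ from these arrays, so that run does not show how the model behaves here. Probe sets that name several genes were tested in the same model over 22317 probe sets. Errors of changes are standard errors (SE). The kit pairs arrays across variants, per the titles, and kit deviations correlated at 0.762 to 0.845 between variants over 10370 genes. The genes named in the text were all 10 members, up to 3 called genes per list and comparison with the largest change, and the 3 nearest genes for PHGDH, ASNS and MTHFD2. SLC25A32, ATF4, EIF2S1, INHBE and markers were named after their values were seen. FOLR1 and SLC46A1 were also named outside this rule. The members and lists were chosen with earlier results of these data known. Alternatives covered the kit term, probe set choice, filter, scaling, variance model and leaving out arrays.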

Additional observations from a re-analysis of the deposited data

Results flagged for a closer look

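The difference between BR200 and BR100 was itself called for 5 of 41 genes, the tested members and the genes named from the related lists (limma, adjusted over 10370 genes), or 12.2%, against 10.6% of all genes. With any array of BR100 or BR200 left out no gene was called in this comparison, so none of the 5 calls remained, while 1953 to 2135 genes had an unadjusted p under 0.05 (limma). PHGDH was lower in BR200, by -0.49 (adjusted p = 0.048). The call was also lost with a wild type array left out, without the kit term (adjusted p = 0.177) and in the fit over probe sets (0.0744). It was lost as well with no filter (adjusted p = 0.23) and without probe sets ending in _x_at, _s_at or _a_at (0.0527). ASS1 differed by 2.15 (adjusted p = 0.0252), with changes against wild type of -5.96 in BR200 and -8.11 in BR100, where it lay near a log2 level of 4. PPP1R15A differed by 1.48 (adjusted p = 0.0322), with -2.28 in BR200 and -3.76 in BR100. SFXN3 differed by 0.61 (adjusted p = 0.0447), with 1.10 in BR200 and 0.49 in BR100, although its sign against wild type depends on the probe set. PTDSS1 differed by -0.43 (adjusted p = 0.0438), with 0.27 in BR200 and 0.70 in BR100.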

How the results depend on the processing

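The 7 tested members kept their direction and their call against wild type under every alternative that could test them; without probe sets ending in _x_at, _s_at or _a_at only 5 could be tested. Averaging a gene's probe sets moved ASNS to -2.14 in BR100 and -2.13 in BR200, MTHFD1 to 1.10 and 1.04, and PSPH to -0.95 and -0.90, since dim probe sets enter the mean. Without a replicate block, called genes numbered 4387 for BR100 and 4100 for BR200 against wild type, and 112 for BR200 against BR100, in which no member was called (1292 genes and 1 member at an unadjusted p under 0.05). Testing every probe set gave 13740, 12839 and, for the kits, 7625. For BR200 against BR100 no filter gave 15, an intensity trend 1745, and leaving out 1 array 0 to 61, with 0 members lower under no filter, every probe set and each array left out. The kit comparison gave 468 without a filter and 430 to 1797 with an array left out; its members lower were 2 with averaged probe sets, 2 with all 6 arrays at log2 4, 4 with median centring, 2 with quantile scaling and 3 with an intensity trend. Directions turned for SPTLC2 (0.11 in BR100, 0.10 in BR200), SFXN3 (-0.23 in BR100) and GART (-0.087 in BR200) with averaged probe sets, and for SRR (-0.41 in BR100, -0.35 in BR200), SFXN3 (-1.56 in BR100, -0.94 in BR200) and SFXN1 (-0.30 in BR200) without those probe sets; the cause was not tested. Over the named genes and probe sets, 89 pairs of a result and an alternative lost the call and 21 gained it. Direction turned in 8 pairs with a call in at least 1 of the fits compared. The other 1548 were called, or not called, as in the main fit. They include pairs called in neither fit, whose direction could differ. Few arrays and low signal limit the precision. MTHFD1L, SHMT1 and ALDH1L2 had no own probe set above the filter. For MTHFD1L and SHMT1 the limit is also one of annotation, since their probe sets above the filter name other genes as well.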
